A study of Mus musculus with 18 samples.

Results

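The tumor necrosis factor (TNF) superfamily is described here in B16F10 melanomas, through its ligands, its receptors and the TRAF adaptors that bind the receptors inside the cell. A gene belongs to the set if its symbol starts with Tnfrsf or Tnfsf followed by a digit or is Traf1 to Traf7, or if it is Tnf, Lta, Ltb, Ltbr, Fas, Fasl, Cd40, Cd40lg, Cd27 or Cd70. No expression value entered this choice, which gave 49 of the 41079 genes measured: 17 ligands, 24 receptors, 7 TRAFs and Tnfsf13os, an RNA named as antisense to Tnfsf13. B16F10 is a mouse melanoma line, and its cells were grown under the skin of female C57BL/6 mice whose age is not given in the sources used here. From day 6 the tumors were injected every 2 days, they were collected 48 h after the last injection, and their poly(A) RNA was sequenced. The study asked whether PS473, a Pistol ribozyme (a small RNA that cuts other RNA) directed against the mRNA of the checkpoint ligand PD-L1, works better inside a manganese framework, NKMOF-101-[Mn], than without it.

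All 6 groups carried the same tumor line in the same strain, with 3 tumors each. The PBS tumors received buffer alone, the Free PS473 tumors the ribozyme with no carrier, and the PS473@CPs tumors the ribozyme on cationic polymers. The NKMOF-101-[Mn] tumors received the empty framework, the M5@NKMOF-101-[Mn] tumors a catalytically inactive ribozyme in the framework, and the PS473@NKMOF-101-[Mn] tumors the active ribozyme in the framework. In the group given the ribozyme in its framework, titles spell the framework with 102 and the treatment description with 101, the name used here. In the expression table the Free PS473 tumors were taken from columns named PBS_PS473, a name that differs from their titles, and all values of that group rest on this match. Tumors are numbered within a group. The labels do not say that the tumors of a group came from separate mice, so p-values measure only the spread between these tumors, which may be partly technical.

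Each value is an FPKM, the fragments for each kilobase of a gene and each 1000000 fragments assigned to genes, so that levels can be set side by side between genes. Between 17208000 and 28397000 fragments were assigned per tumor, and the 12357 genes averaging 1 FPKM or more were tested. The 10 melanocyte markers summed to 5029 to 7975 FPKM over the tumors, so markers of the labelled cell line were present in each. Cd274, the gene of PD-L1, was at 17.0, 32.9 and 9.74 FPKM in PS473@NKMOF-101-[Mn] and at 21.5, 15.7 and 12.3 in the PBS tumors, ranges that overlap. Keratinocyte markers split the tumors, 10 with a marker score of 0.951 to 6.30 and 8 with a score of 0.151 to 0.239 on the log2(FPKM + 1) scale, and every group held tumors of both kinds. Transcripts of T cells were scarce: the 12 T cell markers summed to 2.01 to 17.7 FPKM, and 3 of them reached a mean of 1 FPKM.

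TNF superfamily ligands are mostly trimers on the surface of immune cells or shed from it, and they signal by clustering receptors on the target cell. Receptors with a death domain, such as Fas and TNFR1, can recruit caspase-8 and end in cell death. Most of the other receptors, apart from decoys, bind TRAF proteins and through them switch on NF-kB and MAP kinases, which in T cells gives costimulation (4-1BB, OX40, GITR, CD27) and in B cells and antigen-presenting cells gives survival and maturation (BAFF receptor, CD40). Several agonists of these receptors have been studied as partners of PD-1 and PD-L1 blockade in tumors.

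The receptors stood well above the ligands in these tumors. The 17 ligands had mean levels of 0.0123 to 5.57 FPKM with a median of 0.0843 FPKM, and 2 of them reached a mean of 1 FPKM, whereas 11 of 24 receptors (median 0.899 FPKM) and 5 of 7 TRAFs (median 4.99 FPKM) did. In all, 18 members entered the test across genes, 19 had a mean of 0.1 to 1 FPKM and 12 a mean under 0.1 FPKM. Members nearest the filter were Tnfrsf19, at 1.02 FPKM, on the inside and Tnfrsf25, at 0.977 FPKM, on the outside. Every member was above 0 in at least 2 tumors, and 36 were above 0 in all 18.

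**Figure D1:**
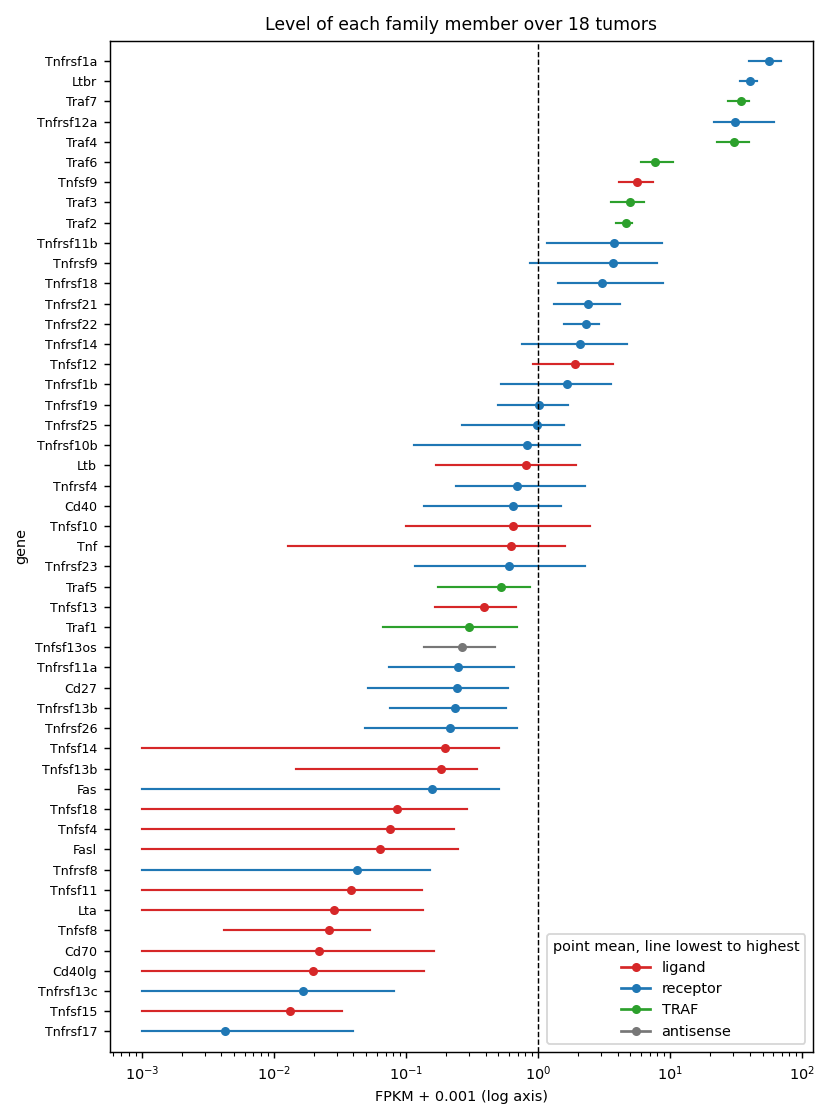
Mean FPKM (points) and the range from lowest to highest tumor (lines) of the 49 members over 18 tumors, on a log axis after adding 0.001, coloured by role. The dashed line marks 1 FPKM, which 18 members reached, and the ligands (red) fill most of the lower part of the plot.

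Among the ligands, Tnfsf9 (4-1BBL, the ligand of the T cell receptor 4-1BB) was the highest, with a mean of 5.57 FPKM. It was at 7.42, 4.44 and 5.85 FPKM in the PBS group, 6.14, 4.801 and 5.697 in the Free PS473 group, 4.74, 4.95 and 5.795 in the PS473@CPs group, 5.096, 5.47 and 5.62 in the NKMOF-101-[Mn] group, 6.94, 5.78 and 4.11 in the M5@NKMOF-101-[Mn] group, and 5.63, 6.49 and 5.28 in the PS473@NKMOF-101-[Mn] group. The groups overlapped throughout, and the highest tumor of all 18 was only 1.81 times the lowest. Tnfsf12 (TWEAK, which acts through the receptor Fn14) followed with a mean of 1.902 FPKM. It was at 1.59, 1.67 and 1.47 FPKM in the PBS group, 1.44, 0.909 and 2.17 in the Free PS473 group, 1.17, 2.68 and 2.203 in the PS473@CPs group, 3.72, 2.05 and 2.04 in the NKMOF-101-[Mn] group, 1.66, 2.32 and 2.63 in the M5@NKMOF-101-[Mn] group, and 1.03, 1.95 and 1.53 in the PS473@NKMOF-101-[Mn] group. The 3 PBS tumors lay close together, and all 3 NKMOF-101-[Mn] tumors lay above them and above the PS473@NKMOF-101-[Mn] tumors.

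The next ligands by level were Ltb (lymphotoxin beta, which lymphocytes use to signal to stromal cells), Tnfsf10 (TRAIL, a death ligand induced by interferon) and Tnf itself, with means of 0.815, 0.641 and 0.624 FPKM. Ltb was at 0.661, 0.562 and 0.768 FPKM in the PBS group, 0.216, 0.169 and 0.713 in the Free PS473 group, 0.521, 1.08 and 1.19 in the PS473@CPs group, 1.49, 1.46 and 1.05 in the NKMOF-101-[Mn] group, 1.008, 0.386 and 0.3804 in the M5@NKMOF-101-[Mn] group, and 0.367, 1.93 and 0.715 in the PS473@NKMOF-101-[Mn] group. Its highest tumor was PS473@NKMOF-101-[Mn] tumor 2 and its lowest Free PS473 tumor 2, and the NKMOF-101-[Mn] tumors all lay above the PBS tumors. Tnfsf10 was at 0.4596, 0.472 and 0.5205 FPKM in the PBS group, 0.116, 0.0986 and 0.4399 in the Free PS473 group, 0.241, 0.828 and 0.826 in the PS473@CPs group, 0.913, 0.541 and 0.746 in the NKMOF-101-[Mn] group, 0.623, 0.90 and 0.557 in the M5@NKMOF-101-[Mn] group, and 0.432, 2.46 and 0.361 in the PS473@NKMOF-101-[Mn] group. Again PS473@NKMOF-101-[Mn] tumor 2 was the highest, while the other two tumors of its group lay below all PBS tumors. Tnf was at 0.438, 0.589 and 0.478 FPKM in the PBS group, 0.301, 0.0118 and 0.987 in the Free PS473 group, 0.405, 1.603 and 0.607 in the PS473@CPs group, 0.831, 0.585 and 0.562 in the NKMOF-101-[Mn] group, 0.598, 1.22 and 0.565 in the M5@NKMOF-101-[Mn] group, and 0.384, 0.748 and 0.326 in the PS473@NKMOF-101-[Mn] group. Its lowest value, in Free PS473 tumor 2, rests on 0.5 recovered fragments (recovered fragments need not be whole), and its highest on 65.0 in PS473@CPs tumor 2.

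The remaining named ligands were near the limit of detection. Fasl, the ligand of the death receptor Fas, had a mean of 0.0621 FPKM and was listed at 0 in 6 tumors, among them all 3 Free PS473 tumors, and its highest value was 0.246 FPKM in PS473@NKMOF-101-[Mn] tumor 2. Lta (lymphotoxin alpha) had a mean of 0.0273 FPKM, was listed at 0 in 7 tumors and was also highest in that tumor. Cd40lg, with which helper T cells license antigen-presenting cells, was above 0 in 6 tumors and Cd70, the ligand of CD27, in 3. The most that any tumor held was 10.0 recovered fragments for Fasl, 7.5 for Lta, 5.0 for Cd40lg and 2.75 for Cd70, and no test was run on these ligands. Fasl was lower without overlap than in PBS (0.0903, 0.159 and 0.0922 FPKM) both with Free PS473 and with the empty framework (0.0507, 0 and 0.0872 FPKM). In recovered fragments PBS held 3.5, 6.0 and 3.5 and the empty framework 2.0, 0 and 3.0, so that separation is less than 1 fragment wide. Of genes under 1 FPKM, 2.34% were lower in this way with Free PS473 and 3% with the empty framework. In the GENCODE annotation Tnfsf13os overlaps Tnfsf13 and Tnfsf12 on chromosome 11. The library protocol does not say that strand was kept, so reads of the antisense RNA and of either ligand cannot be told apart where they overlap.

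Promoter sequences of 4 members are shown because these genes varied together with the T cell or macrophage markers of the tumors, as described further on. They were taken from RefSeq for GRCm38.p6 and run from 250 bases before to 50 bases after the annotated start. The deposited FPKM values carry the later build GRCm39, and these positions were not used for any value. Capitals mark matches on either strand to 4 motifs, which were chosen after the values were seen: the NF-kB motif GGGNNTTTC, the interferon response motif GAAANNGAA, the STAT motif TTCNNNGAA and the TATA box TATAAA. No matches overlapped.
Ltb (chr17:35194257-35194556, plus strand): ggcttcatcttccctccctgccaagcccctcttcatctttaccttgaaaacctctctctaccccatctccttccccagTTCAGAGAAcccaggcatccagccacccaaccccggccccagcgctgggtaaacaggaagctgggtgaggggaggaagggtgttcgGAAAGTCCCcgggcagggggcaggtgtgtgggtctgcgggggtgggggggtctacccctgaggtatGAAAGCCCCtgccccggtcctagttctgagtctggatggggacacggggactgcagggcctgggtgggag
Tnf (chr17:35201958-35202257, minus strand): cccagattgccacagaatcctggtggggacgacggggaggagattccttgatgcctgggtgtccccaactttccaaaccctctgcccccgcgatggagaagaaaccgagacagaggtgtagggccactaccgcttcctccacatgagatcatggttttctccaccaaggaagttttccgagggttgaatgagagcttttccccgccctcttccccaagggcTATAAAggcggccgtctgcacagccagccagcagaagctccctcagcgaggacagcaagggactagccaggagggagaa
Tnfrsf1b (chr4:145246821-145247120, minus strand): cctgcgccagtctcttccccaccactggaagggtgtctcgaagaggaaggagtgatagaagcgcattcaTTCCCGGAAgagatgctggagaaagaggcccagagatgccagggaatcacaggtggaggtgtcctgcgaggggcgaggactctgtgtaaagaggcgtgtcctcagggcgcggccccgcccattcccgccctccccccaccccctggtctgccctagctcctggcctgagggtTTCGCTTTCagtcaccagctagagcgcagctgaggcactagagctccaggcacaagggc
Tnfsf10 (chr3:27316827-27317126, plus strand): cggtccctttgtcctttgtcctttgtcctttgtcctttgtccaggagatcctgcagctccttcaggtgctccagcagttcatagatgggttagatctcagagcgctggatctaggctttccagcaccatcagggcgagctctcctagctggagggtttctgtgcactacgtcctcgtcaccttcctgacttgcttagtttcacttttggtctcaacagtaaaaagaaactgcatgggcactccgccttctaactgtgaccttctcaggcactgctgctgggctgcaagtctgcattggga

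The Ltb window held GAAAGTCCC, an NF-kB match on the minus strand, from position -86 to -78 relative to the start, a further one (GAAAGCCCC) from -20 to -12, and TTCAGAGAA, a STAT match, upstream of both. The Tnf window held TATAAA from position -29 to -24. In Tnfrsf1b an interferon response match (TTCGCTTTC) ended at position -1 and a STAT match (TTCCCGGAA) lay from -181 to -173, and the Tnfsf10 window held none of these letters. Promoters were found for 38 of the 49 members, as 42 windows. The NF-kB motif was in 6 of these windows (14.3%; Ltb, Tnfrsf9, Tnfrsf17, Tnfrsf25, Traf2 and Traf3) and in 4.36% of all 32851 promoters. The STAT motif was in 21.4% of member windows and 8.3% of all, the interferon motif in 19% and 8.56%, and the TATA box in 14.3% and 13.6%. A match is a description of the letters and not of binding.

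Receptors with a death domain ranged from the highest member of the whole set to one of the lowest receptors. Tnfrsf1a, the gene of TNFR1, through which TNF acts on most cell types, had a mean of 55.7 FPKM. It was at 47.05, 63.1 and 49.5 FPKM in the PBS group, 47.1, 43.7 and 57.3 in the Free PS473 group, 39.8, 68.6 and 59.2 in the PS473@CPs group, 62.5, 50.4 and 66.4 in the NKMOF-101-[Mn] group, 57.8, 63.5 and 64.6 in the M5@NKMOF-101-[Mn] group, and 50.9, 61.4 and 49.97 in the PS473@NKMOF-101-[Mn] group. All 18 tumors lay within a 1.72-fold range. Groups overlapped except that every M5@NKMOF-101-[Mn] tumor lay above every Free PS473 tumor. Tnfrsf21 (DR6) had a mean of 2.41 FPKM, Tnfrsf25 (DR3) of 0.977 FPKM and Tnfrsf10b, the only mouse TRAIL receptor with a death domain, of 0.8198 FPKM. Tnfrsf10b varied from 0.114 to 2.08 FPKM and overlapped between all groups. Fas was low, with a mean of 0.157 FPKM, and was listed at 0 in Free PS473 tumor 2 and at 0.507 FPKM in PS473@CPs tumor 2.

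Costimulatory receptors of T cells were at intermediate to low levels and varied widely. Tnfrsf9 (4-1BB, which marks activated T cells) had a mean of 3.69 FPKM and the largest spread of all members, with an SD of 0.63 on the log2(FPKM + 1) scale. It was at 7.99, 4.23 and 1.48 FPKM in the PBS group, 2.66, 0.874 and 7.03 in the Free PS473 group, 0.937, 4.16 and 3.45 in the PS473@CPs group, 3.22, 2.07 and 4.75 in the NKMOF-101-[Mn] group, 3.06, 5.55 and 5.297 in the M5@NKMOF-101-[Mn] group, and 3.36, 2.56 and 3.72 in the PS473@NKMOF-101-[Mn] group. The extremes, PBS tumor 1 and Free PS473 tumor 2, differed 9.14-fold, and PBS alone covered most of that range. Tnfrsf18 (GITR, abundant on regulatory T cells) had a mean of 3.06 FPKM. It was at 3.99, 4.16 and 3.23 FPKM in the PBS group, 2.86, 2.45 and 3.799 in the Free PS473 group, 2.32, 8.78 and 2.102 in the PS473@CPs group, 2.797, 2.500 and 2.61 in the NKMOF-101-[Mn] group, 1.95, 2.37 and 2.44 in the M5@NKMOF-101-[Mn] group, and 2.07, 3.33 and 1.401 in the PS473@NKMOF-101-[Mn] group. PS473@CPs tumor 2 stood apart at more than 2 times the next tumor, and all tumors given the empty framework or M5@NKMOF-101-[Mn] lay below all PBS tumors.

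Tnfrsf14 (HVEM, a receptor for LIGHT that also engages BTLA) had a mean of 2.07 FPKM, and was lowest in Free PS473 tumor 2 (0.752 FPKM) and highest in PS473@NKMOF-101-[Mn] tumor 2 (4.72 FPKM). Tnfrsf4 (OX40) had a mean of 0.694 FPKM, Cd27 of 0.243 FPKM and Tnfrsf8 (CD30) of 0.0417 FPKM. Cd27 was again highest in PS473@NKMOF-101-[Mn] tumor 2, at 0.588 FPKM.

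Receptors of B cells and antigen-presenting cells were all under 1 FPKM. Cd40, through which T cells activate dendritic cells and B cells, led them with a mean of 0.647 FPKM. It was at 0.453, 0.444 and 0.527 FPKM in the PBS group, 0.136, 0.1399 and 0.569 in the Free PS473 group, 0.565, 1.48 and 0.803 in the PS473@CPs group, 1.304, 0.7501 and 0.736 in the NKMOF-101-[Mn] group, 0.441, 0.756 and 0.618 in the M5@NKMOF-101-[Mn] group, and 0.518, 0.834 and 0.578 in the PS473@NKMOF-101-[Mn] group. The PBS tumors lay in a narrow band, every PS473@CPs and NKMOF-101-[Mn] tumor lay above that band, and 2 of 3 Free PS473 tumors lay far below it. Tnfrsf13b (TACI) had a mean of 0.233 FPKM. The BAFF receptor Tnfrsf13c (0.0155 FPKM, at most 5.5 recovered fragments in a tumor) and the plasma cell receptor Tnfrsf17 (0.00324 FPKM, above 0 in 2 tumors) were close to the limit of detection.

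The remaining receptors include several of the highest levels. Ltbr, the lymphotoxin beta receptor of stromal and epithelial cells, had a mean of 40.4 FPKM. It was at 42.1, 33.5 and 37.1 FPKM in the PBS group, 42.1, 39.2 and 45.4 in the Free PS473 group, 39.3, 43.5 and 41.3 in the PS473@CPs group, 38.03, 43.2 and 44.1 in the NKMOF-101-[Mn] group, 41.6, 42.5 and 41.2 in the M5@NKMOF-101-[Mn] group, and 37.2, 38.2 and 36.8 in the PS473@NKMOF-101-[Mn] group. The PS473@NKMOF-101-[Mn] tumors formed a narrow low band, below every tumor of the PS473@CPs, Free PS473 and M5@NKMOF-101-[Mn] groups but within the range of the PBS tumors. Tnfrsf12a (Fn14, the receptor of TWEAK, induced in injured tissue) had a mean of 30.8 FPKM. It was at 31.2, 32.5 and 23.00 FPKM in the PBS group, 29.8, 21.5 and 54.7 in the Free PS473 group, 21.7, 60.99 and 30.2 in the PS473@CPs group, 28.8, 23.3 and 34.00 in the NKMOF-101-[Mn] group, 29.5, 26.7 and 31.2 in the M5@NKMOF-101-[Mn] group, and 23.6, 23.1 and 28.1 in the PS473@NKMOF-101-[Mn] group. PS473@CPs tumor 2 and Free PS473 tumor 3 stood out, and the other tumors lay between 21.5 and 34.0 FPKM.

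Tnfrsf1b, the gene of TNFR2, which is found mainly on immune and endothelial cells, had a mean of 1.64 FPKM. It was at 1.12, 2.05 and 1.45 FPKM in the PBS group, 0.787, 0.521 and 1.695 in the Free PS473 group, 1.08, 1.83 and 2.05 in the PS473@CPs group, 3.57, 1.64 and 2.53 in the NKMOF-101-[Mn] group, 1.15, 1.97 and 2.04 in the M5@NKMOF-101-[Mn] group, and 1.16, 2.04 and 0.902 in the PS473@NKMOF-101-[Mn] group. The highest tumor was NKMOF-101-[Mn] tumor 1 and the lowest Free PS473 tumor 2. Tnfrsf11b (osteoprotegerin, a secreted decoy for RANKL and TRAIL) had a mean of 3.73 FPKM. It was at 1.39, 4.15 and 3.36 FPKM in the PBS group, 1.75, 1.17 and 8.62 in the Free PS473 group, 1.96, 6.03 and 4.701 in the PS473@CPs group, 6.06, 2.39 and 2.87 in the NKMOF-101-[Mn] group, 4.12, 3.85 and 5.33 in the M5@NKMOF-101-[Mn] group, and 1.57, 5.72 and 2.15 in the PS473@NKMOF-101-[Mn] group. Its highest and lowest tumors, 7.39-fold apart, were both in the Free PS473 group. The mouse receptors Tnfrsf22, Tnfrsf23 and Tnfrsf26 lie side by side on chromosome 7 and resemble each other, so the split of fragments between them is uncertain. Their means were 2.31, 0.598 and 0.215 FPKM.

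The TRAF adaptors ranged from high and even levels to low and variable ones. Traf7, a more distant relative with a role in MAP kinase signaling, and Traf4, known from epithelial cells and development, had means of 34.3 and 30.2 FPKM. Traf7 was at 33.4, 34.2 and 33.5 FPKM in the PBS group, 38.7, 39.2 and 36.2 in the Free PS473 group, 39.4, 34.9 and 32.01 in the PS473@CPs group, 36.2, 33.7 and 35.1 in the NKMOF-101-[Mn] group, 32.7, 34.7 and 29.3 in the M5@NKMOF-101-[Mn] group, and 34.99, 32.96 and 27.2 in the PS473@NKMOF-101-[Mn] group. The Free PS473 tumors all lay above the PBS and the PS473@NKMOF-101-[Mn] tumors. Traf4 was at 22.5, 25.3 and 31.4 FPKM in the PBS group, 39.6, 36.6 and 26.4 in the Free PS473 group, 37.1, 25.9 and 29.8 in the PS473@CPs group, 28.8, 30.7 and 29.02 in the NKMOF-101-[Mn] group, 31.8, 27.9 and 23.8 in the M5@NKMOF-101-[Mn] group, and 31.7, 32.4 and 32.5 in the PS473@NKMOF-101-[Mn] group. The 3 PS473@NKMOF-101-[Mn] tumors were within 1 FPKM of each other and above all PBS tumors, of which tumor 3 was only slightly lower. Traf6 (used by CD40, RANK and Toll-like receptors), Traf3 (which restrains the noncanonical NF-kB pathway) and Traf2 (used in signaling from TNFR1 and TNFR2) had means of 7.67, 4.99 and 4.64 FPKM. Traf5 and Traf1, both prominent in lymphocytes, were lower, at 0.525 and 0.2997 FPKM, and varied 4.997-fold and 10.5-fold over the tumors.

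For 21 ligand and receptor pairs of the family, the receptor had the higher mean in 17 and was higher in all 18 tumors in 13. TNFR1 exceeded Tnf 89.3-fold in mean FPKM and Fn14 exceeded TWEAK 16.2-fold. The ligand was higher in 4 pairs. Tnfsf9 stood above Tnfrsf9, which exceeded it in 3 of 18 tumors, and the others were Tnfsf13b (BAFF) over Tnfrsf13c and over Tnfrsf17, and Tnfsf13 (APRIL) over Tnfrsf17. These are RNA levels of whole tumors, in which fewer cells of a type and less RNA per cell cannot be told apart.

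**Figure D2:**
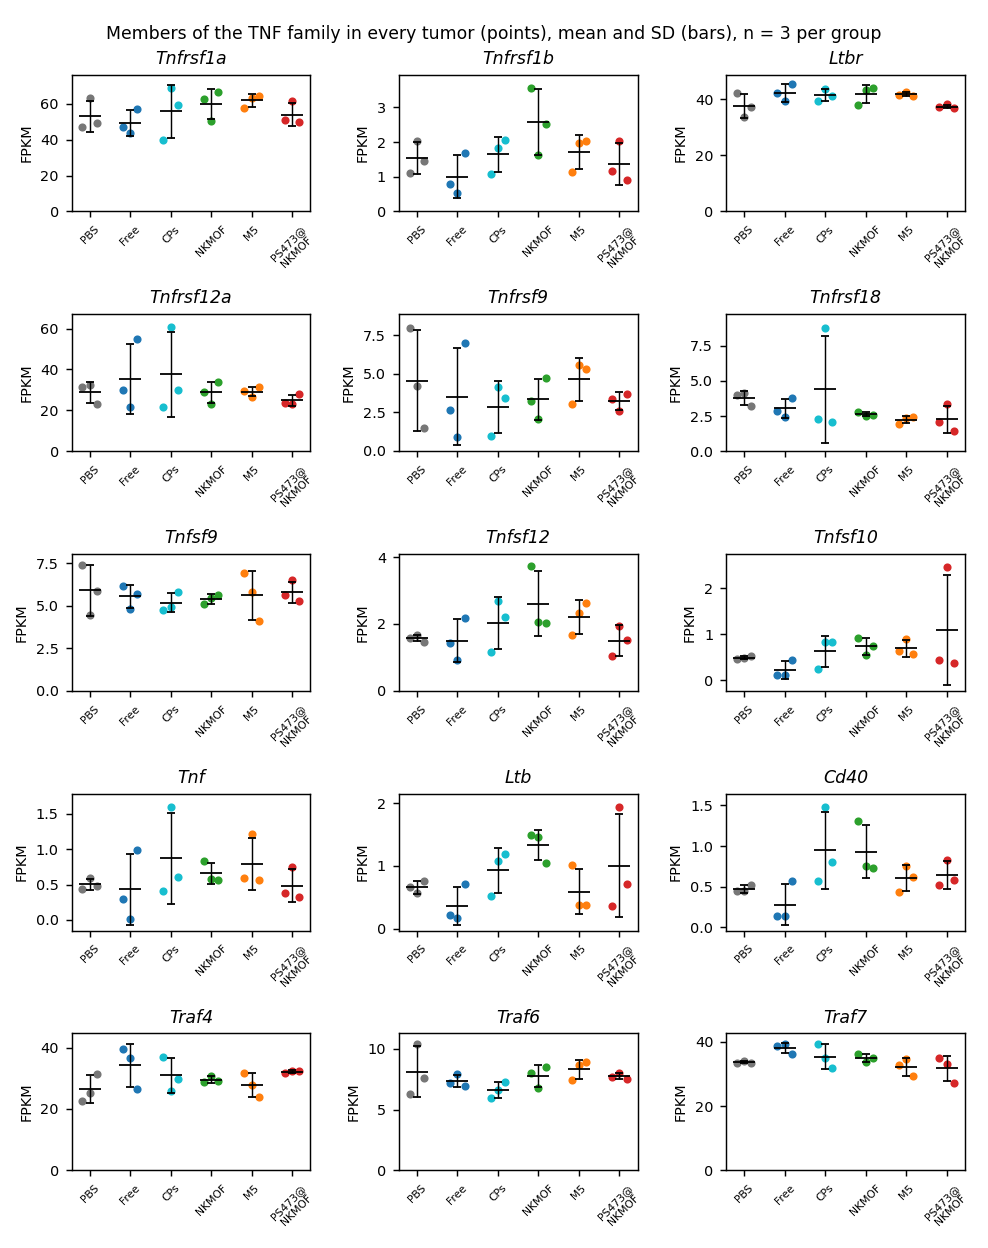
FPKM of 15 members in every tumor (points) with the group mean and SD (bars, n = 3) for PBS, Free PS473 (Free), PS473@CPs (CPs), NKMOF-101-[Mn] (NKMOF), M5@NKMOF-101-[Mn] (M5) and PS473@NKMOF-101-[Mn]. Ltbr, Traf4, Traf6 and Traf7 vary little, and Tnf, Ltb, Tnfsf10 and Cd40 have single tumors far from the rest of their group.

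Against PBS, no member passed the test in tumors given the ribozyme in its framework. At an adjusted p under 0.05 (limma, Benjamini-Hochberg over 12357 genes), with or without a fold above 2, 0 of the 18 tested members were called, and the background was 0% of all genes. Also 0 of these 18 had an unadjusted p under 0.05, against 1% of genes that were higher and 1.1% that were lower at that level. The members had 7 higher and 11 lower means and a median log2 fold change of -0.015, which is also the position of all tested genes, at -0.014. Traf4 was the 1 tested member with no overlap (2.74% of genes were higher and 1.92% lower without overlap), at 32.2 ± 0.454 FPKM (SD, n = 3) against 26.4 ± 4.57 FPKM, a log2 fold change of 0.29 (SE 0.16, unadjusted p = 0.0955, adjusted p = 0.993). The interval for Tnfrsf1a ran from -0.36 to 0.41 and that for Ltbr from -0.19 to 0.19. That of Tnfrsf11b (-1.12 to 1.13) includes changes above 2-fold in either direction. That of Tnfrsf9 (-1.34 to 0.89) includes such a change only as a decrease. The same holds for Tnfrsf18, at 2.27 ± 0.977 FPKM against 3.79 ± 0.495 FPKM in PBS. Of the 31 members under 1 FPKM, 0 were higher and 3 lower without overlap (Tnfrsf13c, Tnfrsf26 and Tnfrsf8), beside 1.16% and 3.05% of the 18929 genes under 1 FPKM. In a fit with a lower filter of 0.1 FPKM (18312 genes, 19 of these 31 members, 0 called), Tnfrsf26 had a log2 fold change of -0.28 (SE 0.13, unadjusted p = 0.0477, adjusted p = 0.993), beside 1.67% of genes lower at that unadjusted level. Comparisons that name PBS or PS473@NKMOF-101-[Mn] share those tumors and are not independent of each other.

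Against PS473@CPs, which carried the same ribozyme on polymers, again 0 of 18 members were called (background 0%) and 0 had an unadjusted p under 0.05 (1% of genes higher, 1.29% lower). The members had 10 lower and 8 higher means, with a median log2 fold change of -0.062 against 0.0013 for all genes. Ltbr was lower with no overlap, at 37.4 ± 0.708 FPKM against 41.4 ± 2.104 FPKM, a log2 fold change of -0.14 (SE 0.089, unadjusted p = 0.136, adjusted p = 0.996). Traf6 was higher with no overlap, at 7.76 ± 0.223 FPKM against 6.63 ± 0.656 FPKM, a log2 fold change of 0.20 (SE 0.13, unadjusted p = 0.152, adjusted p = 0.996). Background shares for such separation were 2.23% lower and 1.89% higher. Of the receptors with large fold changes, Tnfrsf18 was -0.55 (SE 0.33) and Tnfrsf12a -0.45 (SE 0.33) on the log2 scale, and in both the PS473@CPs mean was set by tumor 2. Of the 31 members under 1 FPKM, Tnfrsf8 alone did not overlap and was lower (2.22% of genes), and with the lower filter 0 of 19 had an unadjusted p under 0.05.

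Against Free PS473, 0 of 18 members were called (background 0%) and Traf7 alone had an unadjusted p under 0.05. Traf7 was at 31.7 ± 4.02 FPKM against 38.03 ± 1.57 FPKM, a log2 fold change of -0.26 (SE 0.10, unadjusted p = 0.0192, adjusted p = 0.931), and its groups did not overlap. Of all genes, 2.86% were lower and 2.11% higher at that unadjusted level, and 4.48% were lower and 2.34% higher without overlap, beside 1 member (Traf7) and 2 members (Traf7 and Ltbr) of 18. With the lower filter (0 of 19 called), Tnfsf10 had a log2 fold change of 0.65 (SE 0.27, unadjusted p = 0.0328, adjusted p = 0.972) and Cd40 of 0.37 (SE 0.17, unadjusted p = 0.0472, adjusted p = 0.972), beside 1.8% of genes higher and 3.13% lower at that unadjusted level. None of the 31 members under 1 FPKM lay apart without overlap (1.38% of genes higher, 3.86% lower). Free PS473 tumors 1 and 2 held the lowest T cell scores of all 18 tumors (0.197 and 0.208), and their part in these differences was not tested.

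Against the empty framework, which isolates the addition of the ribozyme, 0 of 18 members were called (background 0%), and 15 of 18 members had lower means. The median log2 fold change was -0.14 for the members and -0.038 for all genes. Tnfrsf1b was lower, at 1.37 ± 0.599 FPKM against 2.58 ± 0.963 FPKM, a log2 fold change of -0.59 (SE 0.26, unadjusted p = 0.0404, adjusted p = 0.999). Tnfsf12 was lower with no overlap, at 1.505 ± 0.459 FPKM against 2.602 ± 0.966 FPKM, a log2 fold change of -0.51 (SE 0.24, unadjusted p = 0.04801, adjusted p = 0.999). At that unadjusted level 1.8% of genes were lower and 0.502% higher, and 5.5% were lower and 2.41% higher without overlap (Traf4 among them, with a log2 fold change of 0.12 (SE 0.16)). Of the 31 members under 1 FPKM, 6 were lower without overlap (Tnfrsf13b, Tnfrsf13c, Tnfrsf23, Tnfrsf26, Tnfrsf8 and Tnfsf14) and 0 higher, beside 3.18% and 2.03% of genes, and with the lower filter Tnfrsf13b had a log2 fold change of -0.20 (SE 0.089, unadjusted p = 0.0383, adjusted p = 0.999), beside 2.01% of genes lower. The macrophage markers also stood higher in the empty framework group, with summed levels of 304 to 567 FPKM against 149 to 267 FPKM, and their part in these differences was not tested.

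Against the inactive ribozyme in the same framework, the comparison that bears on catalytic activity, 0 of 18 members were called (background 0%) and 0 had an unadjusted p under 0.05 (0.267% of genes higher, 0.324% lower). Means were lower for 13 members and higher for 5, with a median log2 fold change of -0.12 against -0.0081 for all genes. Ltbr was the 1 tested member without overlap (2.16% of genes were lower in that way), at 37.4 ± 0.708 FPKM against 41.8 ± 0.655 FPKM, a log2 fold change of -0.16 (SE 0.089, unadjusted p = 0.1003, adjusted p = 1.000). Tnfrsf9 was at 3.36, 2.56 and 3.72 FPKM with the active and 3.06, 5.55 and 5.297 FPKM with the inactive ribozyme, with an interval of the log2 difference from -1.52 to 0.72. Of the 31 members under 1 FPKM, Tnfsf18 was higher and Tnfsf14 lower without overlap (1.39% and 2.76% of genes), and with the lower filter 0 of 19 had an unadjusted p under 0.05.

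The other groups were also compared with PBS. Free PS473 holds the ribozyme alone and NKMOF-101-[Mn] the framework alone, PS473@CPs and M5@NKMOF-101-[Mn] hold a ribozyme with a carrier, and 0 of 18 members were called in any of these 4 comparisons (background 0% in each). In PS473@CPs, 0 of the 18 had an unadjusted p under 0.05 (0.898% of genes higher, 1.19% lower), and 0 lay apart from PBS without overlap (1.93% higher, 3.17% lower). In Free PS473, Traf4 was at 34.2 ± 6.902 FPKM against 26.4 ± 4.57 FPKM, a log2 fold change of 0.35 (SE 0.16, unadjusted p = 0.0455, adjusted p = 0.9998), beside 1.26% of genes higher. Tumor 3 of Free PS473 (26.4 FPKM) lay within the PBS range. Tnfrsf14 was lower without overlap there (1.54% of genes), by -0.48 (SE 0.31) on the log2 scale, and Traf7 was higher without overlap (3.37%), by 0.17 (SE 0.10).

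With the empty framework, Tnfsf12 was higher than in PBS with no overlap (4.52% of genes), by 0.45 (SE 0.24), and Tnfrsf18 lower with no overlap (1.51%), by -0.39 (SE 0.33). With M5@NKMOF-101-[Mn], Tnfrsf14 was higher (4.75% of genes without overlap), by 0.26 (SE 0.31), and Tnfrsf18 again lower (3.36%), by -0.56 (SE 0.33). The unadjusted p of each of these was above 0.05 (with the empty framework 1.15% of genes were higher and 0.316% lower at that level, with M5@NKMOF-101-[Mn] 0.834% and 0.68%). In the fit with the lower filter, Cd40 had a log2 fold change of 0.38 (SE 0.17, unadjusted p = 0.0447, adjusted p = 1.000) with PS473@CPs and of 0.38 (SE 0.17, unadjusted p = 0.0445, adjusted p = 1.000) with the empty framework, where Tnfrsf13b had one of 0.26 (SE 0.089, unadjusted p = 0.0108, adjusted p = 1.000). At that level 1.05% of genes were higher with PS473@CPs and 1.34% with the empty framework. Of the 31 members under 1 FPKM, 5 were higher without overlap with the empty framework (Cd40, Ltb, Tnfrsf13b, Tnfsf10 and Traf1, beside 1.93% of genes) and 1 lower (Fasl, 3%). With Free PS473, 3 were lower (Fasl, Tnfsf10 and Tnfsf4, 2.34%), with PS473@CPs Cd40 was higher (1.52%) and Tnfrsf13c lower (3.94%), and with M5@NKMOF-101-[Mn] Tnfsf10 was higher (2.59%) and Tnfrsf13c and Tnfrsf8 lower (3.38%).

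Taking the 9 framework tumors together against the other 9, 0 of 18 members were called (background 0%), and Tnfrsf18 was the 1 tested member with an unadjusted p under 0.05 (1.63% of genes were lower at that level). Its mean was 2.38 FPKM in framework tumors and 3.74 FPKM in the others, a log2 fold change of -0.42 (SE 0.19, unadjusted p = 0.0455, adjusted p = 0.9002). The ranges of the 2 sets overlapped, since PBS tumor 3, Free PS473 tumors 1 and 2 and PS473@CPs tumors 1 and 3 lay within the range of the framework tumors. Without PS473@CPs tumor 2 the log2 fold change was -0.24 (unadjusted p = 0.0442), and leaving out other single tumors took the unadjusted p to between 0.0139 and 0.0945. The test for any difference among the 6 groups also called 0 members and 0 genes, 0 of the 18 tested members had an unadjusted p under 0.05 in it (1.99% of genes did), and the lowest among them was 0.105 for Tnfrsf1b. With the lower filter Cd40 had an unadjusted p of 0.0266 (adjusted p = 0.9999, beside 2.48% of genes), Tnfrsf13b of 0.0672 and Ltb of 0.0837.

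**Figure D3:**
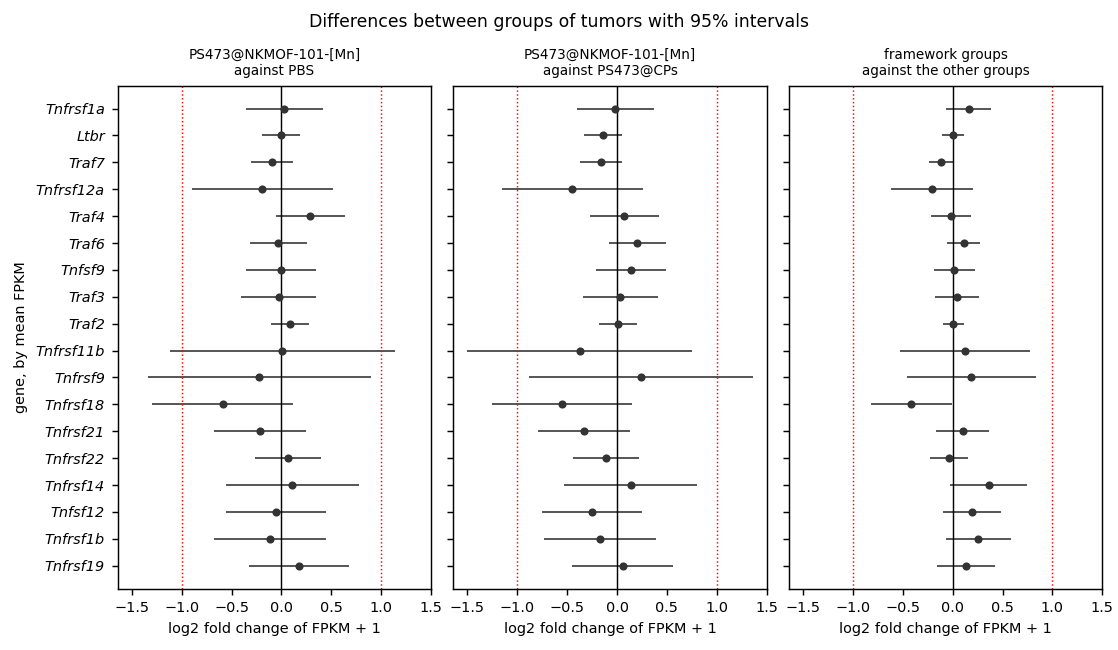
Log2 fold change of FPKM + 1 (points) with 95% intervals for the 18 tested members, ordered by mean FPKM, in 3 of the comparisons, with dotted lines at a 2-fold change. Intervals of the TRAFs, Tnfrsf1a and Ltbr stay inside those lines, and those of Tnfrsf9, Tnfrsf11b and Tnfrsf18 cross a line in both single-group comparisons.

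While the groups did not separate, single tumors did, and several members followed marker scores of immune cells. A marker score is the mean log2(FPKM + 1) of the genes of a cell type list, none of which is a member. A slope on the score was fitted for every tested gene with limma over the 18 tumors. The T cell score ran from 0.197 in Free PS473 tumor 1 to 1.16 in PS473@NKMOF-101-[Mn] tumor 2, and 5 of 18 members had a positive slope past an adjusted p of 0.05 (background 2.5% of genes): Tnfrsf14, Tnfrsf21, Tnfrsf1b, Tnfrsf11b and Tnfsf12. The macrophage score ran from 2.23 to 4.44, and again 5 of 18 members passed (background 5.07%): Tnfrsf1b, Tnfsf12, Tnfrsf11b, Tnfrsf21 and Tnfrsf1a. For the B cell score the count was 3 (Tnfrsf1b, Tnfrsf14 and Tnfsf12, background 1.41%). That score rests on weak genes: its 10 markers summed to 1.44 to 7.91 FPKM, and 1 of them reached a mean of 1 FPKM. It ran only from 0.172 to 0.546. No member had a negative slope past the threshold on any of these 3 scores (background 0.283% for T cell, 0.858% for macrophage and 0.0243% for B cell). The macrophage count kept the same 5 members when ranks were fitted, whereas the counts for the T cell and B cell scores were 0 with ranks. With group means removed, 3 members remained past the threshold for the macrophage score (Tnfrsf1b, Tnfrsf11b and Tnfsf12) and 1 for the T cell score (Tnfrsf11b), and without the 2 tumors farthest from the median of each score 2 remained for macrophages (Tnfrsf1b and Tnfrsf11b), 3 for T cells (Tnfrsf1b, Tnfrsf21 and Tnfsf12) and 0 for B cells.

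Tnfrsf1b had the closest relation of the tested members, with the macrophage score, at Pearson's r = 0.89 (permutation p = 2e-05), Spearman's rho = 0.79 (permutation p = 0.00021) and an adjusted p of 0.00011 for the slope. Without the 2 tumors farthest from the median score (NKMOF-101-[Mn] tumor 1 and Free PS473 tumor 2) r was 0.79, and with group means removed it was 0.87. Tnfsf12 had Pearson's r = 0.84 (permutation p = 2e-05), Spearman's rho = 0.83 (permutation p = 4e-05) and an adjusted p of 0.00092 for the slope, with r = 0.69 without those tumors and 0.80 within groups. Tnfrsf11b had Pearson's r = 0.79 (permutation p = 0.00011), Spearman's rho = 0.79 (permutation p = 0.00016) and an adjusted p of 0.00226 for the slope, with r = 0.74 and 0.92 in the same checks. Transcripts of TNFR2, TWEAK and osteoprotegerin were thus higher where macrophage markers were higher, also among tumors of the same treatment.

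With the T cell score, Tnfrsf14 had Pearson's r = 0.78 (permutation p = 0.00024), Spearman's rho = 0.62 (permutation p = 0.00701) and an adjusted p of 0.00699 for the slope, and Tnfrsf21 had Pearson's r = 0.75 (permutation p = 0.00033), Spearman's rho = 0.80 (permutation p = 0.00017) and an adjusted p of 0.0154 for the slope. Leaving out PS473@NKMOF-101-[Mn] tumor 2 and Free PS473 tumor 1, r was 0.60 for Tnfrsf14, whose slope then missed the threshold (adjusted p = 0.166), and 0.81 for Tnfrsf21. The other tested costimulatory receptors of T cells did not follow this score. Tnfrsf9 had r = 0.11 and Tnfrsf18 r = 0.30, with an adjusted p of 0.903 and 0.640 for the slopes. With the B cell score, Tnfrsf1b had Pearson's r = 0.80 (permutation p = 6e-05), Spearman's rho = 0.76 (permutation p = 0.00054) and an adjusted p of 0.00555 for the slope. The 3 scores are themselves related over the tumors (r = 0.62 for T cell and macrophage, 0.74 for B cell and macrophage, 0.55 for T cell and B cell). The macrophage score was also related to the endothelium score (r = 0.65) and the melanocyte score (r = -0.52). For the T cell score these r were 0.32 and 0.018, and for the B cell score 0.13 and -0.055. With the skin score, across its clusters, r was 0.56 for T cell, 0.60 for macrophage and 0.34 for B cell. A relation with 1 score therefore cannot be assigned to that cell type alone, and the part of other tissue was not tested. In all 126 relations of tested members were computed, and 259 with the lower filter, over the same tumors, and 1e-05 is the smallest permutation p these resamples can give.

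The ligands, receptors, TRAFs and antisense RNA with a mean of 0.1 to 1 FPKM were fitted with the 0.1 FPKM filter. Background shares with this filter, here and between groups, are over all 18312 genes, of which 12357 averaged 1 FPKM or more. The share among genes of 0.1 to 1 FPKM alone, the level of these members, was not computed and may differ. In that fit 6 of 19 further members had a positive slope on the T cell score (background 2.82%): Ltb, Tnfsf10, Cd40, Traf1, Traf5 and Tnf. Ltb had Pearson's r = 0.89 (permutation p = 1e-05), Spearman's rho = 0.87 (permutation p = 2e-05) and an adjusted p of 0.00019 for the slope. Tnfsf10 had Pearson's r = 0.89 (permutation p = 1e-05), Spearman's rho = 0.89 (permutation p = 1e-05) and an adjusted p of 0.00023 for the slope. Cd40 had Pearson's r = 0.84 (permutation p = 2e-05), Spearman's rho = 0.80 (permutation p = 0.0002) and an adjusted p of 0.00125 for the slope. Removing the 2 tumors farthest from the median left r at 0.83 for Ltb, 0.84 for Tnfsf10 and 0.89 for Cd40, and all 3 slopes past the threshold. Within groups r was 0.88, 0.89 and 0.76, and with group means removed the slopes of Cd40 (adjusted p = 0.0897) and Tnf (adjusted p = 0.127) missed the threshold. These members rest on few fragments, with Ltb at 4.75 to 44.5 recovered fragments per tumor.

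The same fit gave 6 of 19 further members with a positive slope on the macrophage score (background 6.21%): Tnfrsf11a, Tnfrsf13b, Tnf, Cd40, Traf5 and Tnfsf14. Tnfrsf11a (RANK, the receptor of the osteoclast factor RANKL) had Pearson's r = 0.81 (permutation p = 4e-05), Spearman's rho = 0.90 (permutation p = 1e-05) and an adjusted p of 0.00275 for the slope. It was also the 1 further member past the threshold on the B cell score (background 1.51%), with Pearson's r = 0.77 (permutation p = 0.00025), Spearman's rho = 0.78 (permutation p = 0.00024) and an adjusted p of 0.0161 for the slope. Tnfrsf13b had Pearson's r = 0.80 (permutation p = 0.00012), Spearman's rho = 0.77 (permutation p = 0.00029) and an adjusted p of 0.00563 for the slope. Tnf, a product of macrophages and T cells alike, had Pearson's r = 0.73 (permutation p = 0.00066), Spearman's rho = 0.80 (permutation p = 0.00018) and an adjusted p of 0.0103 for the slope, and r = 0.68 without the 2 extreme tumors. Without those tumors (NKMOF-101-[Mn] tumor 1 and Free PS473 tumor 2) Tnfrsf11a alone of the 6 kept its call (adjusted p = 0.01795), and the others had an adjusted p of 0.0931 (Tnf) to 0.329 (Cd40). With group means removed Tnfrsf13b (adjusted p = 0.0714) and Traf5 (adjusted p = 0.0811) missed the threshold. On the B cell score Tnfrsf11a missed it without the 2 tumors farthest from the median, Free PS473 tumor 2 and M5@NKMOF-101-[Mn] tumor 2 (adjusted p = 0.194), and with group means removed (adjusted p = 0.207). Cd27, itself a T cell gene, had r = 0.68 with the T cell score and an adjusted p of 0.0656 for the slope. Tnfrsf4 also missed the threshold on that score (adjusted p = 0.366).

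**Figure D4:**
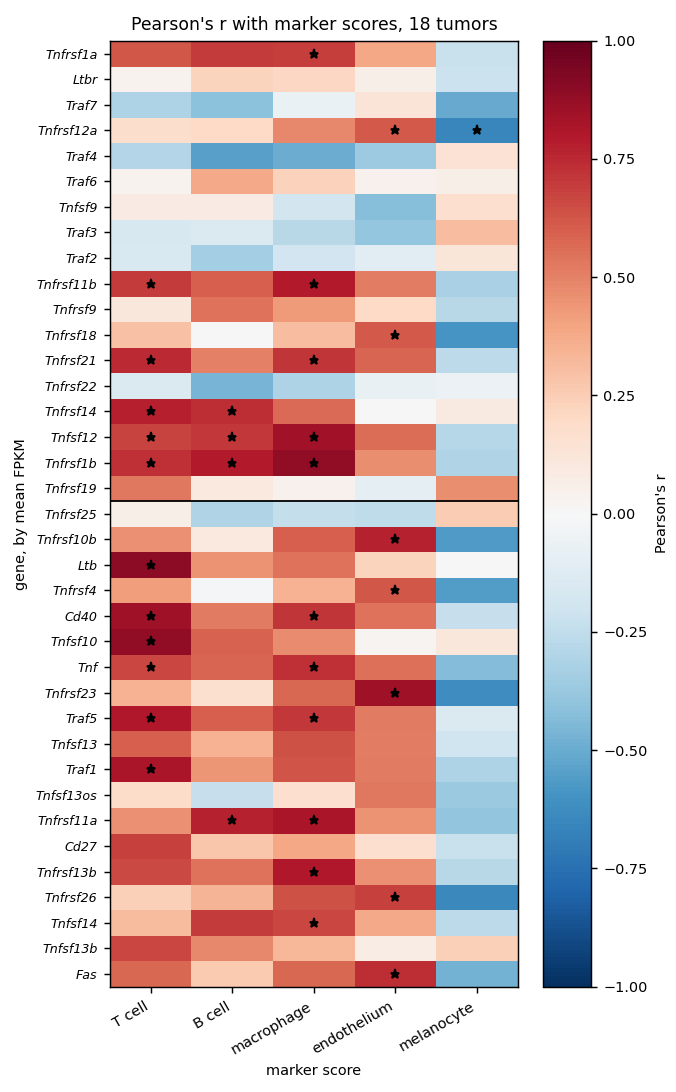
Pearson's r (colour) of 37 members with 5 marker scores over 18 tumors, rows by mean FPKM. Stars mark slopes with an adjusted p under 0.05, over 12357 genes for the 18 members above the black line and over 18312 genes for those under it, and most stars fall in the T cell and macrophage columns.

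Relations with markers of vessels, pigment cells and skin rested mostly on 2 tumors. On the endothelium score, 2 of 18 members had a positive slope (background 6.46%), Tnfrsf12a and Tnfrsf18. Tnfrsf12a had Pearson's r = 0.61 (permutation p = 0.00772), Spearman's rho = 0.37 (permutation p = 0.1296) and an adjusted p of 0.0444 for the slope, and Tnfrsf18 had Pearson's r = 0.62 (permutation p = 0.00612), Spearman's rho = 0.41 (permutation p = 0.0912) and an adjusted p of 0.0433 for the slope. Both rest on 2 tumors: without PS473@CPs tumor 2 and NKMOF-101-[Mn] tumor 1, r was 0.48 and 0.42, and neither slope passed (adjusted p = 0.480 and 0.620). Tnfrsf12a was also the 1 member with a slope on the melanocyte score, a negative one (background 2.92%), with Pearson's r = -0.65 (permutation p = 0.00214), Spearman's rho = -0.49 (permutation p = 0.0418) and an adjusted p of 0.0345 for the slope. This too rests on 2 tumors, Free PS473 tumor 3 and PS473@CPs tumor 2, without which r was -0.33.

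With the 0.1 FPKM filter, 5 of 19 further members had a positive slope on the endothelium score: Tnfrsf23, Tnfrsf10b, Fas, Tnfrsf26 and Tnfrsf4. The background was 10.2% of all 18312 genes, against 6.46% in the fit of genes averaging 1 FPKM or more. The share at the level of these members was not computed. Tnfrsf23 was at 0.117, 2.26 and 0.442 FPKM in the PBS group, 0.312, 0.201 and 0.904 in the Free PS473 group, 0.122, 2.19 and 0.549 in the PS473@CPs group, 1.07, 0.409 and 0.447 in the NKMOF-101-[Mn] group, 0.131, 0.254 and 0.6098 in the M5@NKMOF-101-[Mn] group, and 0.246, 0.284 and 0.226 in the PS473@NKMOF-101-[Mn] group. PBS tumor 2 and PS473@CPs tumor 2 were far above the rest, while the PS473@NKMOF-101-[Mn] tumors stayed in a narrow low range. Tnfrsf23 had Pearson's r = 0.85 (permutation p = 1e-05), Spearman's rho = 0.78 (permutation p = 0.0003) and an adjusted p of 0.00019 for the slope, and r = 0.75 without the 2 extreme tumors. Tnfrsf10b had Pearson's r = 0.77 (permutation p = 0.00029), Spearman's rho = 0.66 (permutation p = 0.00417) and an adjusted p of 0.002296 for the slope, and Fas had Pearson's r = 0.74 (permutation p = 0.00057), Spearman's rho = 0.61 (permutation p = 0.00829) and an adjusted p of 0.007004 for the slope, which dropped to r = 0.45 without those tumors. Tnfrsf23 alone of the 5 kept its call without them (adjusted p = 0.0217), and the others had an adjusted p of 0.116 (Tnfrsf26) to 0.77 (Tnfrsf4).

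Since skin marker levels fell into separate clusters, they were related to members only within each. Over the 10 tumors with skin markers, 0 of 18 members passed (background 2.57% positive), and with the lower filter Tnfrsf23 alone did (background 4.43%), with r = 0.79 and an adjusted p of 0.0478, which was 0.621 without the 2 tumors farthest from the median. This is 1 of 19 members. Over the 8 tumors without, 0 members and 0 genes passed. The endothelium score moved together with the macrophage score (r = 0.65 over all tumors). With the skin score its r was 0.68 over all tumors, a value that spans the gap between the clusters and was not computed within them. Which tissue these receptors came from was not tested.

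**Figure D5:**
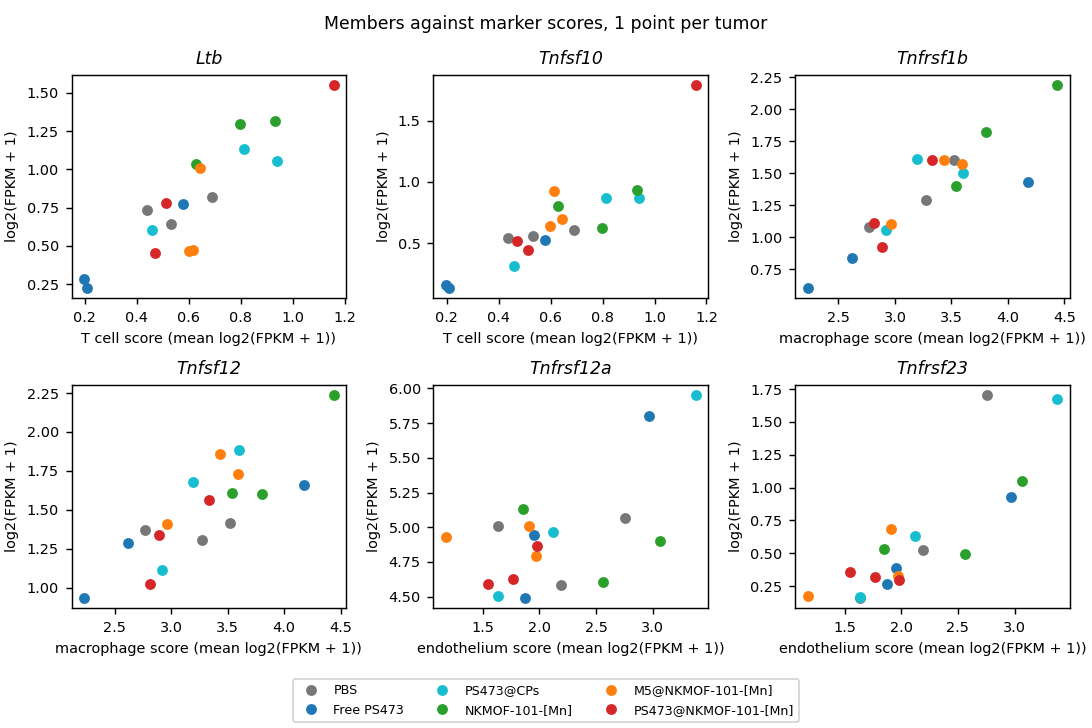
Level of 6 members on the log2(FPKM + 1) scale against the marker score of each tumor, coloured by group. Ltb, Tnfsf10, Tnfrsf1b and Tnfsf12 are higher at higher scores with groups intermixed, and Tnfrsf12a is high in 2 tumors only.

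The path downstream of the receptors was read from 2 lists. Of 35 genes of the receptor complex and NF-kB cascade (adaptors, ubiquitin ligases, IKK and NF-kB subunits), 33 were tested and 0 were called in any of the 10 comparisons. Their median log2 fold change against PBS was -0.0089 for PS473@NKMOF-101-[Mn], beside -0.014 for all genes. At an unadjusted p under 0.05, Rbck1 (a subunit of the linear ubiquitin ligase) was 0.19 higher and Jun (a subunit of the transcription factor AP-1) was at -0.996 on the log2 scale. Of all genes, 1% were higher and 1.1% lower at that level. Jun was also lower against PS473@CPs, at -1.20 (SE 0.40, unadjusted p = 0.00914, adjusted p = 0.996), and in framework tumors as a whole, at -0.67 (SE 0.23, unadjusted p = 0.0107, adjusted p = 0.9002). Cyld, a deubiquitinase that dampens the pathway, was 0.20 higher in framework tumors (SE 0.070, unadjusted p = 0.0107, adjusted p = 0.9002). Tnip1 was also higher there at an unadjusted p under 0.05, beside 2.93% of genes higher and 1.63% lower. At that level PS473@NKMOF-101-[Mn] had higher Rnf31 and Cyld than Free PS473 (2.11% of genes higher). Against PBS, Otulin was higher with the empty framework (1.15%) and Tnip1 with M5@NKMOF-101-[Mn] (0.834%).

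Of 25 genes that TNF is known to induce (chemokines, adhesion molecules, cytokines), 18 were tested and 0 were called in any comparison. In PS473@NKMOF-101-[Mn] their log2 fold changes had a median of -0.56 relative to the empty framework, -0.62 relative to PS473@CPs, -0.48 relative to PBS, -0.14 relative to M5@NKMOF-101-[Mn] and -0.11 relative to Free PS473, beside -0.038, 0.0013, -0.014, -0.0081 and -0.042 for all genes. None of the 18 reached an unadjusted p under 0.05 in these 5 comparisons. Cxcl10 was 0.66 higher in PS473@CPs than in PBS (unadjusted p = 0.0391, adjusted p = 1.00) and Ccl5 1.31 higher in the empty framework (unadjusted p = 0.0294, adjusted p = 1.00), both chemokines that draw T cells. Neutrophils are known to express Il1b and Ptgs2 of this list. The 6 neutrophil markers summed to 0.356 to 1.63 FPKM in PS473@NKMOF-101-[Mn], 1.44 to 462 FPKM in PBS and 0.561 to 299 FPKM in PS473@CPs. The sums were 0.420 to 150 FPKM in Free PS473, 1.04 to 19.6 FPKM in M5@NKMOF-101-[Mn] and 1.86 to 12.1 FPKM in the empty framework group. Only 2 of these markers reached a mean of 1 FPKM, and Ly6g was at 0 in all 18 tumors. The neutrophil score was highest in PBS tumor 2 (2.81) and PS473@CPs tumor 2 (2.80), whose skin scores were also the highest (6.00 and 6.30). The sums are thus no measure of neutrophil numbers, and the part of neutrophils in these medians was not tested.

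The highest and lowest values of the members often fell in the same tumors. Of the 36 members above 0 in all tumors, 11 were highest in PS473@CPs tumor 2 and 12 lowest in Free PS473 tumor 2. Of the 18 tested members, 4 were highest and 6 lowest in these tumors, respectively. The share of all genes with extremes in these tumors was not computed, so the counts are not a result about the family. PS473@CPs tumor 2 also held the highest skin and endothelium scores, and Free PS473 tumor 2 the lowest macrophage and B cell scores. Their depths, 24534000 and 25649000 fragments, were among the larger. Among the 18 tested members, 9 varied less than 2-fold between the extreme tumors, 4 varied 2-fold to 5-fold and 5 more than that, from 1.33-fold for Traf2 to 9.14-fold for Tnfrsf9.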

How the data were processed

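RNA-seq of 18 tumors was analysed from the FPKM table that the authors deposited, with 1 column per tumor and 1 length per gene. The genome build is GRCm39 in the submitters' processing notes, and the aligner, counting tool and annotation are not given in the sources used here. Fragments per tumor were recovered from the steps between low FPKM values, of which 45.1% to 49.4% were whole within 0.01, so no count model was used. Counting error limits the weak members. FPKM values were tested as log2(FPKM + 1), which understates changes of weak genes, for genes averaging 1 FPKM or more, with limma 3.58.1 in R 4.3.3 (1 mean per group, trend in the prior variance, Benjamini-Hochberg over all genes, two-sided). Slopes on marker scores were adjusted over all genes in place of the planned adjustment over members, a change made after seeing the data. Correlations used 100000 permutations (scipy 1.17.1).

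Members are named with values if they had an unadjusted p under 0.05 in a comparison (up to 5), were among the 4 highest of their role, were on a fixed list of 16 well-known members, had 1 of the 3 largest SDs, or 1 of the 3 largest r with a score. Others named were chosen after their values were seen. The members, the marker lists and the pathway lists were chosen with earlier results of these data known. Alternatives were a pseudocount of 0.1, other filters, quantile and upper-quartile scaling, no trend, a replicate block, the skin score as a covariate, the compared groups alone, and leaving out each tumor.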

Additional observations from a re-analysis of the deposited data

How the results depend on the processing

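The counts of members called between groups stayed at 0 under every alternative that was run: 197 recomputed counts over 10 comparisons and the test among the 6 groups, with 0 to 0 when each tumor was left out in turn. Of 86 recomputed values of the 5 members with an unadjusted p under 0.05, 46 stayed under it, 40 did not and 0 changed direction. The replicate numbers did not pair the tumors (correlation of deviations from the group means -0.73 to 0.72 over 45 same-numbered pairs, median -0.019), and the fit with the replicate block also called 0 members. Counts of members related to a score moved more, and the cause was not tested. For the T cell score (5 members) they were 0 with ranks, 3 without the 2 tumors farthest from the median, 1 with group means removed and 11 with the 0.1 FPKM filter. For the B cell score (3) they were 1 with a pseudocount of 0.1, and 0 with ranks, without 2 tumors and with group means removed. For the macrophage score (5) they were 2 without 2 tumors, 3 with group means removed and 11 with the lower filter. For endothelium (2) they were 0 with a pseudocount of 0.1, with ranks, without 2 tumors and with group means removed, and 7 with the lower filter. For melanocytes (1) they were 0 with ranks, without 2 tumors and with group means removed. For skin (0) the lower filter gave 1, and group means were not removed, since the clusters hold too few tumors per group. The lower filter and the fits over all genes were chosen after seeing the data. Depth limits the 12 members with a mean under 0.1 FPKM, for which no test was run.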
